A study of Rattus norvegicus with 18 samples.

Results

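The heat shock genes of the cytosol and mitochondria described here are 10 chaperone genes, measured in the livers of rats on 3 diets. They are Hsph1, Hspa8, Hspa4, Hsp90aa1, Hsp90ab1, Dnajb1, Dnaja1, Hspd1, Hspe1 and Hspb1. They were chosen by symbol, as members of the heat shock response outside the endoplasmic reticulum (ER), and because Hsph1 was lower on the high fat diet than on chow. Each was represented by its brightest probe set (the group of array probes that reports 1 transcript), by mean level over 18 arrays. Of the 10, 8 had a probe set of their own and belong to the 14217 genes compared. The other two, Hspa8 and Hsp90aa1, are reported only by probe sets annotated to a further gene. In all, 15 probe sets reported the 10 genes.

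The animals were adult male Sprague Dawley rats fed for 8 weeks and fasted overnight before liver was taken. The HFD+PE group received a high fat diet and, per kg of body weight and day, 150 mg of pomegranate skin extract, the HFD group the high fat diet alone, and the chow group a chow diet. The labels call the livers of the HFD group fatty, and those of the HFD+PE and chow groups normal. Of the 6 Affymetrix arrays per group, 1 pair in each (HFD+PE 3 and 4, HFD 1 and 2, chow 3 and 4) had 0 probe sets over 2 log2 units apart, against 18 to 110 in the other 150 array pairs. The arrays of such a pair were averaged as a single animal, so that each group has 5 animals. By other measures only HFD 1 and 2 stood clearly apart. The SD of the probe set differences was 0.117 for them, 0.215 for chow 3 and 4 and 0.2598 for HFD+PE 3 and 4. In another pair, HFD 3 and 5, it was 0.2596. Equal values made up 42.9%, 20.2% and 18.1% of probe sets in the 3 averaged pairs, in that order. In chow 6 and HFD+PE 6 they made up 20.9%. Nothing in the labels gives the composition of the diets or the source of the extract.

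Heat shock proteins are chaperones that keep other proteins folded, refold damaged ones and pass those beyond repair on for degradation. Hsp70 and Hsp90 machines work in the cytosol with cochaperones, and the Hsp60 and Hsp10 chaperonin works in the mitochondrial matrix. The transcription factor HSF1 raises many of these genes when unfolded proteins accumulate, by binding heat shock elements, which are inverted repeats of GAA in their promoters. Hepatocytes, which make much of the plasma protein, hold large amounts of the constitutive forms.

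Levels below are deposited log2 signals, and a difference of 1 is a doubling of the signal. Signals of different probe sets are not comparable with each other. The HFD 1 and 2 arrays were closer to the chow arrays (mean SD of the probe set differences 0.295 and 0.294) than to the other 4 HFD arrays (0.333 each), and the main differences from HFD are also given without that animal. It was not alone in this: 10 of 18 arrays, these included, were nearer to another group than to their own, the others by a smaller margin. HFD+PE 1 lay farther from its own group (0.357) than from the HFD arrays (0.342) and the chow arrays (0.348). Hepatocyte markers, 9 of 10 measured, averaged 13.7 to 13.9 in HFD+PE, 13.7 to 13.8 in HFD and 13.6 to 13.8 in chow animals. Macrophage markers, 10 of 12 measured, averaged 7.23 to 8.13 in HFD+PE, 7.52 to 8.45 in HFD and 8.18 to 9.12 in chow, and 9 of the 10 were lower in HFD+PE than in chow. Stellate cell and matrix markers averaged 6.59 to 6.92 in HFD+PE, 6.64 to 7.07 in HFD and 7.0 to 7.21 in chow, with 9 of 10 lower in HFD+PE than in chow. Both lists thus lay below the chow range in every HFD+PE animal, as Hsph1 did. Their part in the levels below was not tested, and fewer cells of a type and less RNA per cell cannot be told apart in whole liver.

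Hsph1 encodes Hsp110, a nucleotide exchange factor that lets Hsp70 release its clients. Its level was 8.9, 8.9, 9.0, 9.2 and 9.0 in the HFD+PE animals, 9.7, 8.7, 8.5, 9.2 and 9.0 in the HFD animals, and 10.3, 10, 9.9, 9.8 and 9.6 in the chow animals. In these lists the averaged pair comes first. All 5 HFD+PE animals lay below all 5 chow animals, while the averaged HFD pair lay within the chow range and the other 4 HFD animals below it. The HFD+PE animals were close together (9.0 ± 0.12, SD, n = 5), and the HFD animals spread more widely (9.02 ± 0.47) around a mean almost the same, against 9.92 ± 0.26 in chow. A second, dimmer Hsph1 probe set averaged 6.26 ± 0.17 in HFD+PE, 6.31 ± 0.64 in HFD and 7.19 ± 0.44 in chow. It had the same arrangement, with the averaged HFD pair at 7.15 and the other HFD animals between 5.5 and 6.6.

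Hspa8 encodes Hsc70, the constitutive cytosolic Hsp70. Its only probe set is annotated to Hspa8 and Haus8l2, and the accession given for it is an Hspa8 transcript. The signal was 12.3, 12.2, 12.5, 12.6 and 12.3 in HFD+PE, 12.7, 12.3, 12.4, 12.5 and 12.4 in HFD, and 13.0, 12.8, 12.8, 12.8 and 12.6 in chow. HFD+PE and chow met at a single value, 12.6, and every other HFD+PE animal lay below every chow animal. Hspa4, a second Hsp110-type exchange factor, was much flatter, at 7.84 ± 0.18 in HFD+PE, 7.93 ± 0.19 in HFD and 8.03 ± 0.21 in chow. Its groups overlapped, from 7.6 to 8.1 in HFD+PE, 7.6 to 8.05 in HFD and 7.8 to 8.35 in chow.

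**Figure D1:**
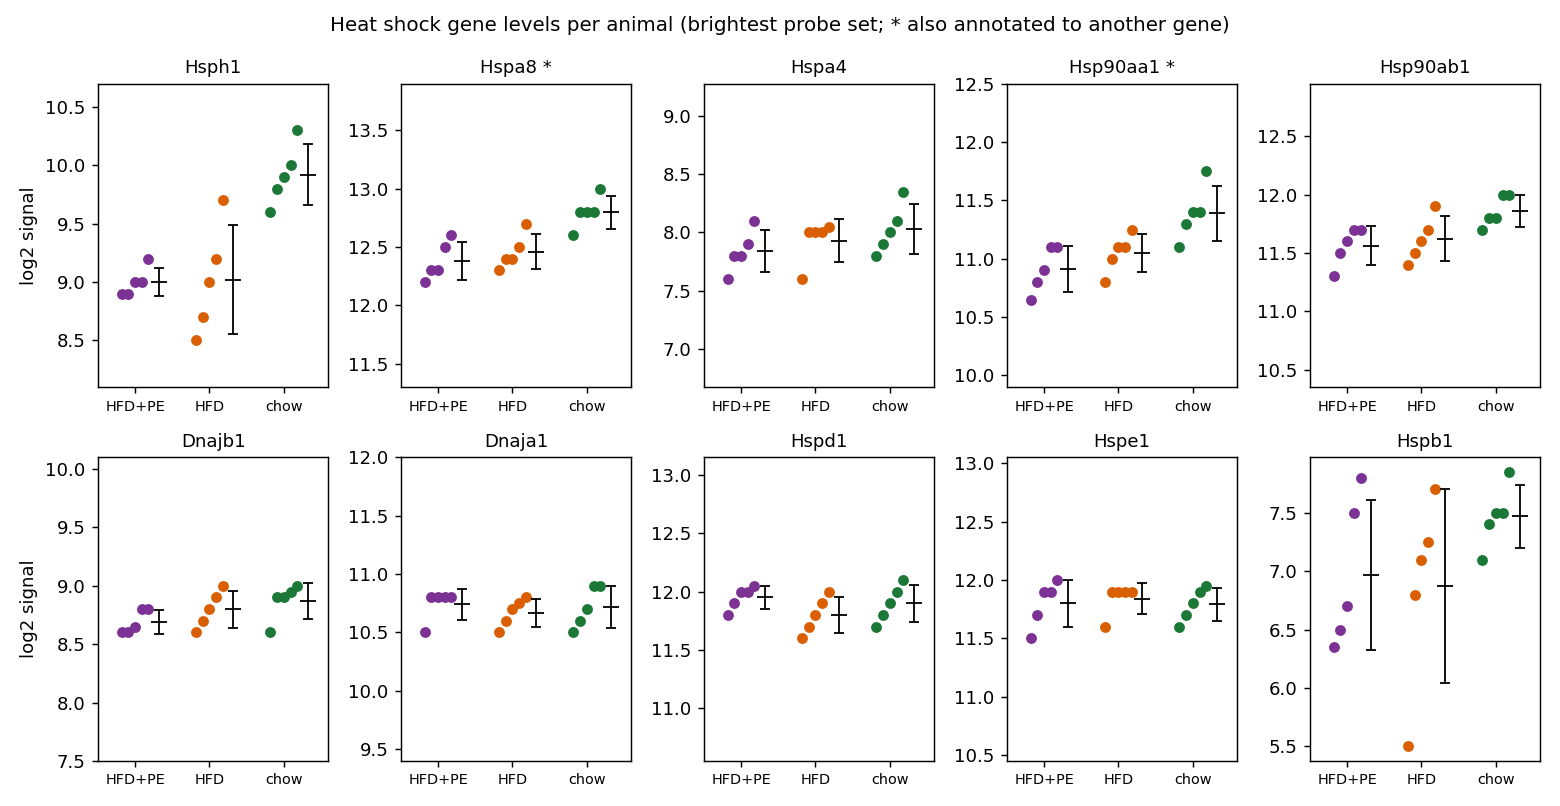
Log2 signal of the 10 heat shock genes (brightest probe set) in each of 5 animals per group, sorted by value, with HFD+PE left of HFD and chow; bars are mean ± SD, every panel spans the same number of log2 units, and an asterisk marks a probe set also annotated to another gene. Hsph1 had all HFD+PE animals (8.9 to 9.2) below all chow animals (9.6 to 10.3), while Hspe1 was level across the groups.

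Hsp90aa1 and Hsp90ab1 encode the inducible and the constitutive form of cytosolic Hsp90, which matures kinases and steroid receptors. The brighter of 2 probe sets annotated to Hsp90aa1 and its pseudogene Hsp90aa1-ps17 was at 10.65, 11.1, 11.1, 10.9 and 10.8 in HFD+PE, 11.25, 11, 10.8, 11.1 and 11.1 in HFD, and 11.75, 11.4, 11.3, 11.4 and 11.1 in chow. The highest HFD+PE animals and the lowest chow animal shared the value 11.1. On the dimmer of these probe sets HFD+PE (9.45 to 9.9) and chow (10 to 10.7) did not overlap, with HFD between 9.7 and 10.1. The array cannot divide these signals between the gene and the pseudogene.

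Hsp90ab1 has its own probe set and read 11.3, 11.5, 11.7, 11.7 and 11.6 in HFD+PE, 11.9, 11.6, 11.7, 11.5 and 11.4 in HFD, and 12.0, 12.0, 11.7, 11.8 and 11.8 in chow. The HFD+PE and chow ranges met at 11.7, and the averaged HFD pair again lay among the chow animals. A second Hsp90ab1 probe set averaged 11.1 ± 0.16 in HFD+PE, 11.14 ± 0.26 in HFD and 11.42 ± 0.19 in chow. That averaged pair was the highest HFD animal for Hsph1, Hspa8, Hspa4, both Hsp90 genes and Hspd1.

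The J-domain proteins Dnajb1 and Dnaja1 deliver clients to Hsp70 and start its ATP cycle. Dnajb1 averaged 8.69 ± 0.10 in HFD+PE, 8.80 ± 0.16 in HFD and 8.87 ± 0.16 in chow, with overlapping ranges. Dnaja1 averaged 10.74 ± 0.13 in HFD+PE, 10.67 ± 0.12 in HFD and 10.72 ± 0.18 in chow. The spread within each of the 3 groups exceeded the distance between the Dnaja1 means. Their second probe sets averaged 7.09 ± 0.19 in HFD+PE, 7.15 ± 0.24 in HFD and 7.38 ± 0.24 in chow for Dnajb1, and 10.11 ± 0.09, 10.02 ± 0.18 and 10.01 ± 0.25 in the same groups for Dnaja1.

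In mitochondria, Hspd1 encodes Hsp60 and Hspe1 its lid, Hsp10. Hspd1 was at 12.05, 11.9, 12.0, 11.8 and 12.0 in HFD+PE, 12.0, 11.6, 11.7, 11.8 and 11.9 in HFD, and 12.1, 11.9, 11.8, 12.0 and 11.7 in chow. Hspe1 averaged 11.80 ± 0.20 in HFD+PE, 11.84 ± 0.13 in HFD and 11.79 ± 0.14 in chow. Neither mitochondrial gene showed the separation seen for Hsph1.

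Hspb1 encodes the small heat shock protein Hsp27 (Hsp25 in rodents), which holds unfolding proteins without ATP. It was the most variable of the 10 genes, at 6.35, 7.8, 7.5, 6.7 and 6.5 in HFD+PE, 7.25, 7.7, 5.5, 7.1 and 6.8 in HFD, and 7.85, 7.4, 7.5, 7.1 and 7.5 in chow. The chow animals were closer together (SD 0.27) than the HFD+PE (SD 0.64) and HFD animals (SD 0.83). All groups overlapped.

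Because the genes were chosen with HFD against chow in view, that comparison is a description and carries no test. Hsph1 differed by -0.90, or -1.07 without the averaged HFD pair. The Hspa8 probe set differed by -0.34 (-0.40 without the pair), Hsp90aa1 by -0.34 (-0.39) and Hsp90ab1 by -0.24 (-0.31). Hspb1 differed by -0.60, a value that rests largely on HFD 4 at 5.5: it was -0.258 without that animal, -0.808 without HFD 3 and -0.695 without the averaged pair. The 5 remaining genes differed by between -0.10 and 0.05, or between -0.15 and 0.035 without the pair. Of the 8 genes with their own probe set, 7 lay below 0, where 46.6% of all genes did, and none had HFD animals wholly below chow, as 0.211% of all genes had.

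The comparison of HFD+PE with HFD asks what the extract adds to the diet. In limma's moderated test 0 of 14217 genes had an adjusted p under 0.05 (0%), and 384 had an unadjusted p under 0.05 (2.7%). Of the 8 heat shock genes, 0 passed either threshold, and 0 had HFD+PE animals wholly below the HFD animals, as 0.0563% of all genes had. A difference below 0 was found for 5 of the 8 and for 46.6% of all genes, and their median was -0.03, beside 0 over all genes. The difference was -0.02 for Hsph1, with a 95% interval of -0.40 to 0.36, and 0.15 without the averaged HFD pair. It was -0.08 ± 0.10 (SE) for the Hspa8 probe set, -0.14 ± 0.12 for Hsp90aa1 and -0.06 ± 0.10 for Hsp90ab1. Without the averaged HFD pair these were -0.02, -0.09 and 0.01, and the median of the 8 genes was 0.05. Hspd1 was 0.15 ± 0.09 higher in HFD+PE than in HFD, the furthest above 0 of the 10, with an unadjusted limma p of 0.127, and 0.20 higher without the pair. Hspb1, at 0.10, had the widest interval, -0.62 to 0.82, and was at -0.243 without HFD 4 and 0.308 without HFD 3. Every adjusted limma p was 0.990 or above. A p that misses the threshold does not show equal levels, and the Hsph1 interval allows a difference in either direction. The HFD animals that entered the choice of genes are in this comparison too.

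The comparison of HFD+PE with chow gives diet and extract together, and shares its chow animals with the comparison that chose the genes, so that its p-values are not independent of that choice. Again 0 of 14217 genes had an adjusted limma p under 0.05 (0%), and the smallest was 0.104. Hsph1, the gene with the largest difference of the 10, was 0.92 lower in HFD+PE (SE 0.18, 95% interval -1.3 to -0.54, 0.529 of the chow signal, limma adjusted p = 0.104). The second Hsph1 probe set differed by -0.93 (SE 0.25). The Hspa8 probe set differed by -0.42 (SE 0.10, 0.747 of the chow signal, limma adjusted p = 0.168 over all probe sets). The Hsp90aa1 probe sets differed by -0.48 (SE 0.12, limma adjusted p = 0.200) and -0.63 (SE 0.12, limma adjusted p = 0.129), and Hsp90ab1 by -0.30 (SE 0.10, limma adjusted p = 0.275) and, on its second probe set, -0.32 (SE 0.12). With any 1 animal left out, Hsph1 differed by between -1.0 and -0.825.

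The others ran from -0.50 for Hspb1 (SE 0.34) through -0.19 for Hspa4 and -0.18 for Dnajb1 to 0.02 for Dnaja1, 0.05 for Hspd1 and 0.01 for Hspe1, all with adjusted limma p at or above 0.509. The second probe set was at -0.29 (SE 0.13) for Dnajb1 and at 0.10 (SE 0.11) for Dnaja1. Hspb1 ran from -0.708 without HFD+PE 1 to -0.345 without HFD+PE 3 and 4, and Hspa4 was at -0.11 without the averaged chow pair. At an unadjusted p under 0.05, 2 of the 8 genes with their own probe set were lower in HFD+PE, Hsph1 and Hsp90ab1, against 5.14% of all genes. Among the 8, only Hsph1 had all HFD+PE animals below all chow animals, an arrangement found for 0.732% of all genes. A difference below 0 was found for 5 of the 8 and for 45.6% of all genes. The median difference of the 8 was -0.185, beside 0.01 over all genes, and that of the 10 brightest probe sets was -0.245. The lowest differences were those of Hsph1, Hspb1, Hsp90aa1, Hspa8 and Hsp90ab1, with Hspb1 the least precise of them, while Hspd1, Hspe1 and Dnaja1 were near 0.

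**Figure D2:**
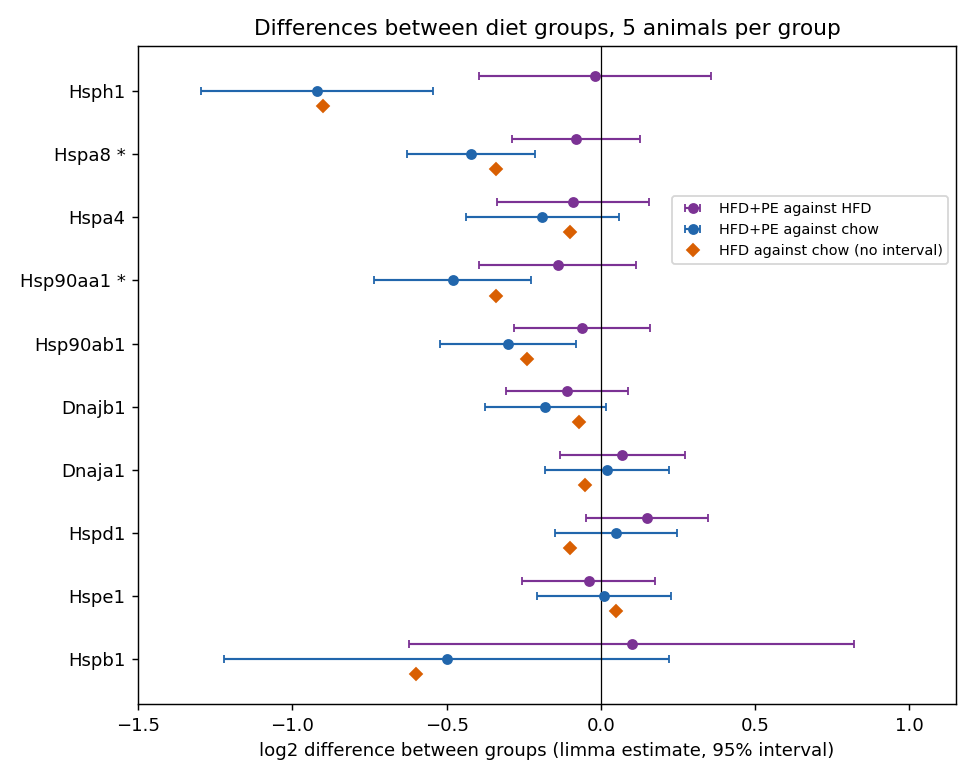
Log2 difference between groups for the 10 heat shock genes, with limma 95% intervals where HFD+PE is set against HFD or against chow, and HFD against chow as points without intervals because that comparison chose the genes; an asterisk marks a probe set annotated to a further gene, and n = 5 animals per group. Hsph1 lay at -0.92 against chow and at -0.02 against HFD, and the intervals of HFD+PE against HFD all include 0.

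The arrays fell into sets by the mean level of the hybridization controls BioC, BioDn and CreX, which are added in fixed amounts. HFD+PE 1 and 3 and chow 1, 2 and 3 formed the high set (11.88 to 12.62), and the other 13 arrays, among them every HFD array, the low set (10.97 to 11.47). For a further control, BioB, every array of the high set lay outside the range of the low set, most of them below it. It was at 5.7 to 7.0 on HFD+PE 1 and 3 and chow 2 and 3, and at 9.63 on chow 1. In the low set BioB was at 7.93 to 8.57. Within the high set Hsph1 was at 8.8 to 8.9 on 2 HFD+PE arrays and 9.9 to 10.2 on 3 chow arrays. Within the low set it was at 9.0 to 9.2 on 4 HFD+PE arrays and 9.6 to 10.4 on 3 chow arrays. The difference was -1.18 in the high set and -0.88 in the low set. The Hspa8 probe set gave -0.62 and -0.38, and Hsp90ab1 -0.60 and -0.24, in the same order. Hsp90aa1 was nearly equal in both (-0.57 and -0.58), and Hspb1 went the other way (-0.52 and -0.725). These are differences between arrays, not animals. HFD+PE 3 and chow 3 are in the high set, and HFD+PE 4 and chow 4, averaged with them elsewhere, in the low set. The sets are thus not independent. The signal of 3' over 5' actin probe sets, a sign of RNA integrity, was 3.6 to 4.05 log2 units in HFD+PE, 3.1 to 4.0 in HFD and 3.4 to 4.1 in chow. For GAPDH it was 2.4 to 3.4 in HFD+PE, 2.1 to 3.2 in HFD and 2.15 to 3.2 in chow. The 3' signal was thus well above the 5' signal in every group, and these values do not show the RNA to be intact.

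Promoters (250 bases before to 50 after the annotated start, RefSeq GRCr8) were read for 9 of the 10 genes and searched for heat shock elements. The search used GAANNTTC and TTCNNGAA, each its own reverse complement, for 2 inverted units, and GAANNTTCNNGAA and TTCNNGAANNTTC, on both strands, for 3 units. Every 3-unit match contains 2-unit matches, which overlap. The promoters of Hspb1 (-0.50), Hspa4 (-0.19) and Dnajb1 (-0.18), with a lower signal in HFD+PE than in chow, are not printed. The 4 that are, with matches in capitals, set Hsph1, Hspa8 and Hsp90ab1, lower as well, beside Hspe1, which was level. They lie at chr12:10427118-10427417 (+) for Hsph1, chr8:50080264-50080563 (+) for Hspa8, chr9:22930173-22930472 (+) for Hsp90ab1 and chr9:64084077-64084376 (+) for Hspe1, each printed 5′ to 3′.
Hsph1: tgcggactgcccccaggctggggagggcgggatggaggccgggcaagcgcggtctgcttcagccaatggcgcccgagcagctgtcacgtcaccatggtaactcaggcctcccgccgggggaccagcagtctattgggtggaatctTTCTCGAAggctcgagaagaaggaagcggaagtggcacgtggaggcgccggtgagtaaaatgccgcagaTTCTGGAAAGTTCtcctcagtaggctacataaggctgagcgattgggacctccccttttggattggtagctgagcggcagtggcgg
Hspa8: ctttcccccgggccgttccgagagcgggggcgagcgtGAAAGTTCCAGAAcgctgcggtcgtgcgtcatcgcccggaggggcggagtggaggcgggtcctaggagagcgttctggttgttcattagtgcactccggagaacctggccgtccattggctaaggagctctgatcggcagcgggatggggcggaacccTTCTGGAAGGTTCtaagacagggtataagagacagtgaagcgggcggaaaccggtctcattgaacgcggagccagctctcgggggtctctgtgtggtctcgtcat
Hsp90ab1: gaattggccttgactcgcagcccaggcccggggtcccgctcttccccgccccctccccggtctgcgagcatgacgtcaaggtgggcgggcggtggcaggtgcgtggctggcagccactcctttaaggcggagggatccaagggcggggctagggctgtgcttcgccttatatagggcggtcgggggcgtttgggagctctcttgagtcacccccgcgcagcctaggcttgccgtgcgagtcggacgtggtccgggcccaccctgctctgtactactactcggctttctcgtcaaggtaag
Hspe1: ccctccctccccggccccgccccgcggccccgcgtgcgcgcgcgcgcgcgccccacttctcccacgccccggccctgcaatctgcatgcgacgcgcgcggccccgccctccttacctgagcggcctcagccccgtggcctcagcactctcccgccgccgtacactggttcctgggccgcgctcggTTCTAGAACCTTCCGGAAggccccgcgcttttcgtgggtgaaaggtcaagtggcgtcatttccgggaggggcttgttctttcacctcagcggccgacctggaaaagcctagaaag

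Hsph1 held the 3-unit site TTCTGGAAAGTTC with its first base 36 bases before the start, and a separate 2-unit site TTCTCGAA further upstream. Hspa8 held 3-unit sites GAAAGTTCCAGAA and TTCTGGAAGGTTC, and the second lay 55 bases before the start. Hspe1 held a run of overlapping sites, TTCTAGAACCTTC and GAACCTTCCGGAA, 65 and 60 bases before the start. The Hspe1 and Hspd1 windows overlap by 211 bases on opposite strands, and both contain this run. Hsp90ab1 had no match in its window, which says only that these letters are not there.

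Of the 9 promoters, 7 held a 2-unit match and 5 a 3-unit match (Hsph1, Hspa8, Dnaja1, Hspd1 and Hspe1). Hspd1 and Hspe1 both count here for the run that they share. Among all 33469 promoters of the table, 15.9% held 2 units and 0.798% held 3. Among the 11733 promoters of measured genes the shares were 11.8% and 0.452%. The genes were chosen as members of the heat shock response, so their higher share is a description and not a test. Dnajb1 and Hspb1 had 2-unit matches only, and Hspa4 and Hsp90ab1 had none. Whether matches go with the difference of HFD+PE from chow was not tested. With 3-unit matches, Hsph1 was at -0.92 and Hspa8 at -0.42, and Hspe1, Hspd1 and Dnaja1 were at 0.01, 0.05 and 0.02. With 2-unit matches only, Hspb1 was at -0.50 and Dnajb1 at -0.18. Without a match, Hsp90ab1 was at -0.30 and Hspa4 at -0.19.

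Within groups, the genes also varied from animal to animal, which the choice of genes did not use. Deviations from the group mean were correlated with those of Hsph1 over 15 animals, for 9 genes, by permutation within groups with 100000 resamples, and p was adjusted over the 9. Hspa8 followed Hsph1 most closely (Pearson r = 0.80, adjusted permutation p = 0.0027; Spearman rho = 0.80, adjusted permutation p = 0.00549). Without the 2 animals whose Hsph1 lay farthest from the median, the averaged HFD pair and HFD 4, r was 0.85. For this and the other values without those 2 animals, deviations were still taken from group means that include them. Hsp90aa1 had r = 0.69 (adjusted permutation p = 0.0121), rho = 0.64 (adjusted permutation p = 0.0679) and r = 0.62 without those animals. Hspa4 had r = 0.63 (adjusted permutation p = 0.0451), rho = 0.60 (adjusted permutation p = 0.0720) and r = 0.54 without them.

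For Hspd1 r was 0.64 and for Dnaja1 0.55, both with an adjusted permutation p of 0.0559, and rho was 0.49 and 0.48. Hsp90ab1 (r = 0.46), Hspe1 (r = 0.39), Hspb1 (r = 0.36) and Dnajb1 (r = 0.29) did not pass either, and the value for Hspb1 was -0.10 without the averaged HFD pair and HFD 4. Single animals moved these values both ways, here with the group means taken anew without the animal. Hsp90ab1 had r = 0.142 without the averaged HFD pair and 0.652 without HFD 4, and Dnajb1 0.648 and 0.069. Hspb1 had 0.581 without HFD 3 and -0.031 without HFD 4. By the mean of each gene's probe sets r was 0.743 for Hsp90ab1 and 0.620 for Dnajb1. Over all 45 pairs of the 10 genes the median r was 0.449, from -0.414 to 0.802. For Hsph1 with all other 14216 genes the median r was 0.014 and the 5th and 95th percentiles were -0.507 and 0.503. Animals high in Hsph1 for their diet were thus also high in Hspa8, by this test, and Hspa8 alone passed by rho as well. The genes that did not pass were both cytosolic and mitochondrial. For mitochondrial Hspd1 r (0.64) was close to that of cytosolic Hspa4 (0.63).

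**Figure D3:**
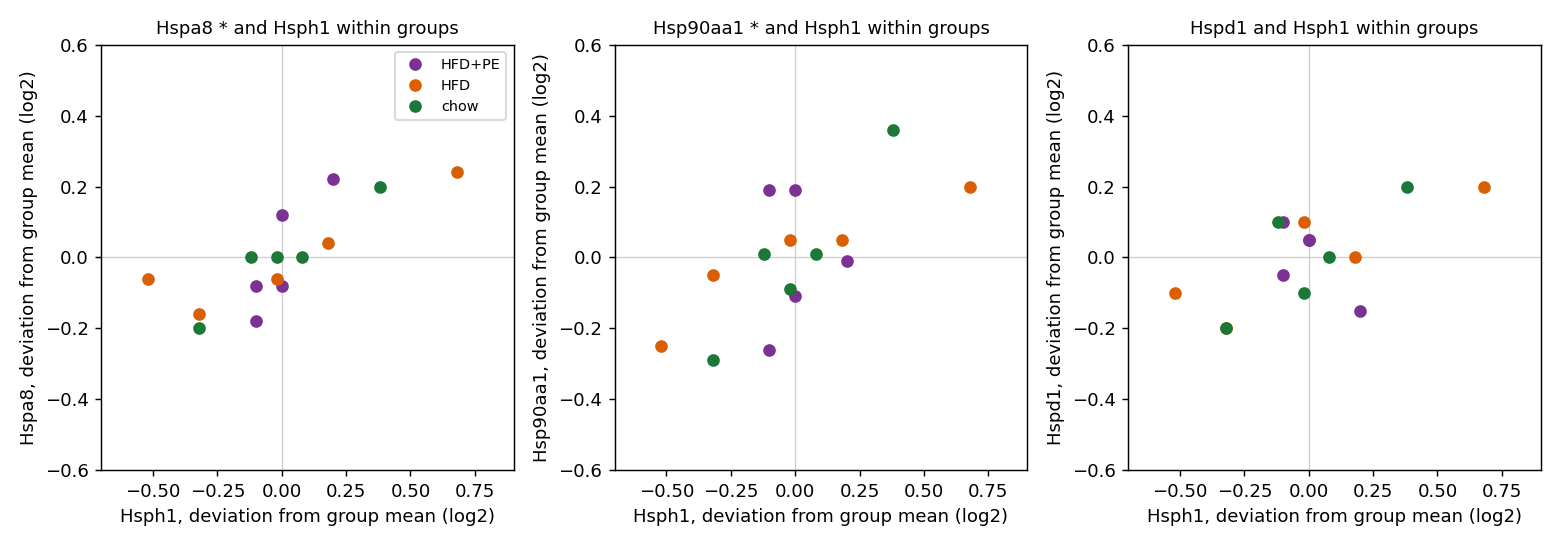
Deviation of each animal from its group mean for Hsph1 (x axis, log2) against Hspa8, Hsp90aa1 and Hspd1 (y axes, log2), 15 animals coloured by group; an asterisk marks a probe set also annotated to another gene. Pearson r was 0.80, 0.69 and 0.64, and the points at both ends of the Hsph1 axis are HFD animals.

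The 5 named genes whose deviations were most like those of Hsph1 were Snap29 (r = 0.842), Pi4ka (0.839), Stip1 (0.819), Psmb9 (0.815) and Ufd1 (0.796), over the same 15 animals. They were picked from all genes as the highest, so these values are a description. Stip1 encodes Hop, the adaptor that passes clients between Hsp70 and Hsp90, Psmb9 an immunoproteasome subunit, and Ufd1 a cofactor of the p97 segregase. Snap29 and Pi4ka, a membrane fusion protein and a lipid kinase, are neighbours in the RefSeq GRCr8 annotation with 0 gene starts between them. In HFD+PE against chow Stip1 differed by -0.45, Psmb9 by -0.65, Pi4ka by -0.23, Snap29 by -0.20 and Ufd1 by 0.05.

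The remaining chaperone network was described through 9 lists with 115 symbols, 112 of them measured. The lists, ER chaperones included, were chosen with earlier results of these data known. Their counts beside the shares of all genes are thus a description and not a test. In HFD+PE against HFD, 2 of the 112 were lower at an unadjusted p under 0.05 (the ER chaperones Serpinh1 and Hyou1, by -0.45 and -0.36), against 1.06% of all genes, and 0 were higher, against 1.64%. In HFD+PE against chow, 19 of the 112 were lower, against 5.14% of all genes, and 2 were higher, against 6% of all genes. Most of the lower ones, 13, were ER chaperones, and the rest were 4 Hsp90 cochaperones and 2 Hsp70 cochaperones. None of the 112 had an adjusted limma p under 0.05 in either comparison.

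Of the HSF family, 0 of 5 genes differed at an unadjusted p under 0.05 in HFD+PE against HFD or against chow. Of all genes, 2.7% did so against HFD, and against chow 5.14% were lower and 6% higher. In a list this short, 0 does not show the family to be unchanged. Hsf1, the heat shock transcription factor, averaged 6.71 ± 0.23 in HFD+PE, 6.69 ± 0.24 in HFD and 6.57 ± 0.13 in chow. Of the other Hsp70 genes outside the ER, 0 of 8 passed in HFD+PE against chow, beside the same shares of all genes. Among them Hspa1a, the stress-inducible Hsp70, averaged 6.06 ± 0.92 in HFD+PE, 5.79 ± 0.41 in HFD and 6.59 ± 0.32 in chow, a difference from chow of -0.53 (SE 0.33). Hspa9, the mitochondrial Hsp70, averaged 10.54 ± 0.24 in HFD+PE, 10.48 ± 0.13 in HFD and 10.47 ± 0.24 in chow, so that it was as level as Hspd1 and Hspe1.

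Among Hsp90 cochaperones and organizers 4 of 17 were lower in HFD+PE than in chow at an unadjusted p under 0.05, and 0 were higher, against 5.14% and 6% of all genes. They were Stip1 at -0.45 (SE 0.11, limma adjusted p = 0.134), Chordc1 at -0.38 (SE 0.13), Fkbp5, an Hsp90-bound prolyl isomerase of steroid receptor complexes, at -0.52 (SE 0.19), and Aarsd1 at -0.24. Stip1 averaged 7.70 ± 0.07 in HFD+PE, 7.74 ± 0.23 in HFD and 8.15 ± 0.20 in chow. Among Hsp70 cochaperones 2 of 25 were lower (Dnaja4 at -0.37 and Dnajb2 at -0.20) and 2 higher (Dnajb4 at 0.37 and Bag2 at 0.41), near the same shares of all genes. Dnaja4 was at -0.16 by the mean of its probe sets. Of the TRiC chaperonin and prefoldin subunits 0 of 13 passed, of the small heat shock proteins 0 of 7, and of mitochondrial protein quality control 0 of 8. These short lists stand beside the same shares of all genes.

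The ER chaperones stood furthest below 0 among the lists. Of 19, 13 were lower in HFD+PE than in chow at an unadjusted p under 0.05, against 5.14% of all genes, and the median of the 19 was -0.41, beside 0.01 over all genes. Hyou1, the ER relative of Hsp110, was at -0.82 (-0.485 by the mean of its probe sets), Dnajb11, an ER J-domain protein, at -0.56, and Sdf2l1 and Creld2 at -1.05 and -0.98. The integrated stress response list had 0 of 10 past that threshold, against 5.14% of all genes lower and 6% higher, and a median of 0.135.

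**Figure D4:**
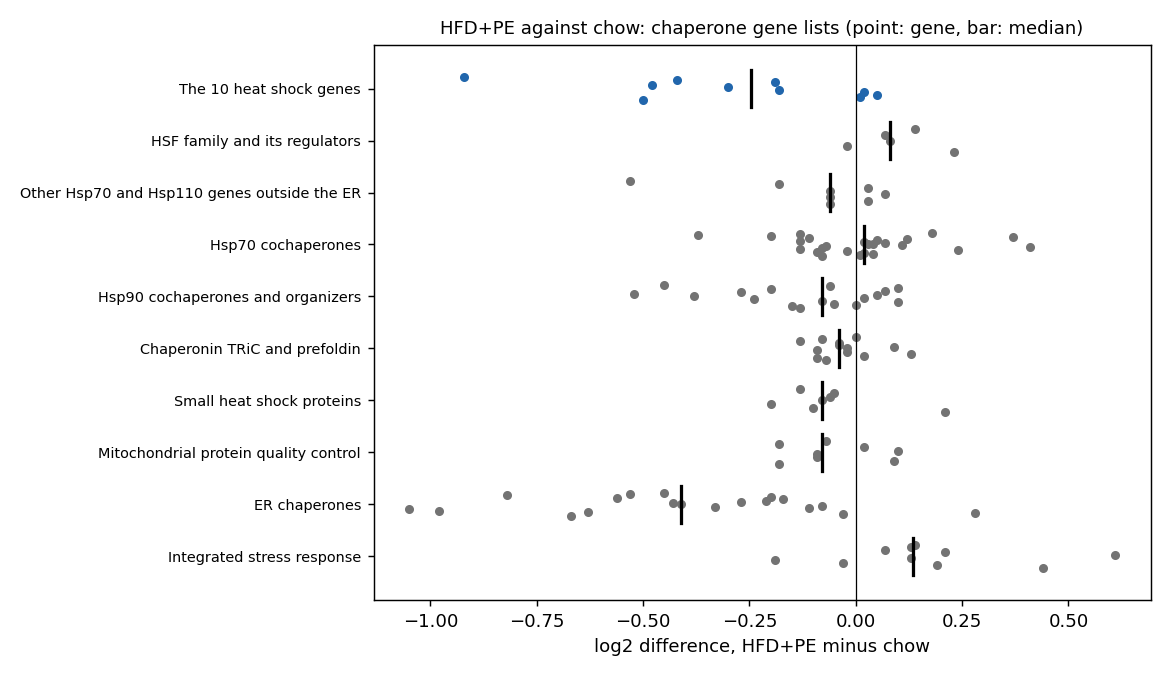
Log2 difference of HFD+PE from chow for the 10 heat shock genes (top row) and for each further chaperone list, 1 point per gene, with the median of each row marked. The top row has a median of -0.245, the ER chaperones of -0.41, and the other lists lie between -0.08 and 0.135.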

How the data were processed

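The members and lists were chosen with earlier results of these data known. RNA from 18 rat livers was hybridized to Affymetrix arrays; the submitters' processing notes name Affymetrix Expression Console and RMA (background correction, quantile normalization and probe summary) without versions. The authors deposited log2 signals of 31099 probe sets, rounded to 0.1 and ranging from 2.2 to 15. Rounding and the number of animals limit their precision, and arrays have no read depth.

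Control probe sets, 57 in all, were dropped. Of the others, 20826 named 1 symbol, 436 several and 9780 none, and the brightest probe set of each symbol gave 14217 genes. Probe sets with several symbols entered only a fit of all non-control probe sets, which was added after the data had been seen, as was leaving the averaged HFD pair out. Array pairs with 0 probe sets over 2 log2 units apart were averaged; in the labels each of the 18 arrays is a biological replicate, and counting 15 animals is an inference from the values. No label says whether animals shared a litter or cage.

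Groups were compared with limma 3.58.1 (lmFit with 1 mean per group, eBayes) in R 4.3.3, two-sided, with Benjamini-Hochberg adjustment over all genes (or all probe sets) at 0.05. Correlations used numpy 2.4.6 in Python 3.11.15. Replicate numbers did not pair the animals: same-numbered arrays' deviations correlated at -0.305 to 0.189. Alternatives were 18 separate arrays, the low set of hybridization controls, that set as a covariate, a replicate block, the second number of the sample descriptions (meaning not given) as a term, the mean of a gene's probe sets, median centring, repeated quantile normalization, a minimum mean level of 6, a trended robust prior, and each animal left out. All 10 genes and all their probe sets were named; of each list, the 4 genes with the smallest p in each HFD+PE comparison and the brightest could be named, and the 5 genes most like Hsph1. Lists were not tested as sets.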

Additional observations from a re-analysis of the deposited data

Results flagged for a closer look

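In 4 of the 30 combinations of gene and group, the lowest animal stood apart from the other 4 by a gap that was large for the group's range; chance does this in about 1 in 20 groups, and values rounded to 0.1 make such gaps coarse. Dnaja1 in HFD+PE 1 was 10.5, against 10.8 in the other HFD+PE animals. Hspe1 in HFD 3 was 11.6, against 11.9 in the other HFD animals. Hspa4 in HFD 4 was 7.6, against 8.0 to 8.05 in the other HFD animals. Dnajb1 in chow 6 was 8.6, and the remaining chow animals lay between 8.9 and 9.0. The 4 values belong to 4 different animals.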

How the results depend on the processing

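Hsph1 stayed lower in HFD+PE than in chow in all 25 alternatives, by -1.0 to -0.825, with an adjusted limma p of 0.0148 to 0.341. That p was under 0.05 only in the fits of 18 arrays, at 0.0148 plain, 0.0329 with the replicate block and 0.0199 with the second number as a term. Genes at an adjusted p under 0.05 in HFD+PE against chow numbered 145 with 18 arrays, 119 with the replicate block, 144 with the second number, 3 in the low set, and 0 to 26 with 1 animal left out (26 without HFD+PE 3 and 4), against 0 as reported. In HFD+PE against HFD they numbered 0 to 2 with 1 animal left out, and in HFD against chow 1 in the low set and 0 to 1 with 1 left out. At an unadjusted p, HFD+PE against HFD gave 725 genes with 18 arrays, 610 in the low set, 711 with the replicate block, 736 with the second number, 238 at a mean level of at least 6 (fewer genes tested) and 316 to 600 with 1 left out, against 384. HFD against chow gave 665 with the set as a covariate, against 1088. The fits of 18 arrays enter both arrays of each averaged pair as separate animals. The causes of these changes were not tested.

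Differences near 0 changed sign, all uncalled. In the low set HFD+PE against HFD gave Hsph1 0.03, Hsp90ab1 0.0050, Hspe1 0.01 and Hspb1 -0.095. The covariate gave Hspe1 0.018 and Hspb1 -0.012, and the 3 fits of 18 arrays, replicate block included, gave Hspb1 -0.067. With 1 animal left out, Hsph1 ran from -0.15 to 0.15, Hsp90ab1 from -0.115 to 0.01, Hspe1 from -0.10 to 0.035 and Hspb1 from -0.243 to 0.308. Against chow, the covariate gave Dnaja1 -0.0089 and Hspe1 -0.029, and leaving 1 animal out gave Dnaja1 -0.035 to 0.08 and Hspe1 -0.04 to 0.085. With the mean of all probe sets the difference from chow of Hyou1 was -0.485 and that of Dnaja4 -0.16. The replicate block changed no other call among the 8 genes with their own probe set; the shared probe sets of Hspa8 and Hsp90aa1 were recomputed only with animals or sets of arrays left out, and with 1 animal left out ran from -0.475 to -0.37 and from -0.553 to -0.39 against chow. Precision is set by 5 animals per group and by rounding to 0.1.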

Other observations

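Heat shock elements are not limited to the chaperones described: 53 measured genes, 4 of the 10 heat shock genes and several listed chaperones among them, had a 3-unit heat shock element in the RefSeq GRCr8 promoter window. In HFD+PE against chow, 27 of them lay below 0 (50.9%), with a median of -0.01, and 8 were lower and 1 higher at an unadjusted limma p under 0.05. Without those 4, 26 of 49 lay below 0 (53.1%), 7 were lower and 1 higher. Of 11680 measured genes with a promoter and no such element, 45.3% lay below 0, 583 were lower and 716 higher. The lowest after Hsph1 were Serpinh1 (-0.67), a collagen chaperone of the ER, Bst2 (-0.60), an interferon-induced antiviral protein, Vopp1 (-0.54), Chordc1 (-0.38), an Hsp90 cochaperone, and Plod2 (-0.34), a collagen lysyl hydroxylase. Serpinh1 and Plod2 act on collagen, and stellate cell and matrix markers were lower too in HFD+PE than in chow; their part was not tested.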
